A study of Danio rerio with 6 samples.

Results

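The surfactant protein B paralogues sftpba and sftpbb were described in sorted brain macrophages of adult zebrafish. They are the 2 rows carrying these symbols among the 21860 genes of the deposited table, and each symbol had 1 row. The pair was chosen by its signal in these libraries, both genes standing higher in all mutant libraries than in the controls, so their differences from control are given below as a description, with no test.

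Transcripts were measured in 6 libraries of GFP-positive brain cells from fish of the mpeg1-GFP line, TLF x AB by strain and 9 to 12 months old. There were 2 libraries per genotype, namely wild-type control, csf1ra-/-, and csf1ra-/-;b+/-, which also carries 1 mutant copy of csf1rb by its genotype label and is called the compound mutant below. Their description could also be read as lacking both receptors, and the genotype label was followed. The descriptions of both controls hold the word young and those of the mutants do not, while the age label is the same for all 6 libraries. The labels give neither the csf1r alleles nor whether the libraries of a genotype came from separate fish or pools, so every p-value reflects how far these particular libraries lie apart, and that spread may be technical.

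Surfactant protein B belongs to the saposin-like family, small proteins held together by disulfide bonds that bind and rearrange lipid membranes. In the mammalian lung it is made by alveolar epithelial cells as a larger precursor, is cut by proteases including cathepsin H and napsin A, and spreads phospholipid at the air surface. Its relative prosaposin is the lysosomal precursor of the saposins, which help enzymes to degrade sphingolipids. Zebrafish have no lung, and carry 2 genes named after the mammalian one. The mpeg1 reporter marks macrophages, among them microglia, the resident macrophages of the brain, and csf1ra and csf1rb encode the zebrafish receptors for colony-stimulating factor 1 and interleukin 34, on which macrophages depend.

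Depth and the make-up of the libraries differed between genotypes. Reads over all genes came to between 4241988 and 15011963 per library, with the controls lowest and the compound mutants highest. Values below are in units of signal, the deposited counts-per-million (CPM) scale, in which the authors divided reads by an effective library size, and 1 read was worth 0.0809 to 0.157 units. That scaled size was 1.73 times the total reads in control replicate 1 and 0.802 to 1.07 times in the other libraries. Spearman's correlation across genes was 0.672 between the controls, 0.731 between the csf1ra-/- libraries and 0.827 between the compound mutants, while pairs from different genotypes ran from 0.536 to 0.747. All 20 microglia markers had a signal of at least 1 in every library. Both targeted receptors were read in each library. The gene csf1ra stood at 37.7 and 67.9 in the controls, 42.6 and 24.3 in the csf1ra-/- libraries, then 18.5 and 7.73 in compound mutants. The gene csf1rb stood at 900.5 and 1356 in the controls, 1432 and 783 in the csf1ra-/- libraries, then 329 and 173 in compound mutants. A count per gene does not show which allele was read.

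The paralogue sftpba (ENSDARG00000094708) stood at 5.85 and 10.0 units of signal in the controls, from 43 and 81 reads. In csf1ra-/- it stood at 132 and 291, from 1129 and 1856 reads, and in compound mutants at 192 and 261, from 2374 and 2835 reads. Both controls lay far below every mutant library, while the mutant genotypes overlapped, since the csf1ra-/- libraries held both the lowest and the highest mutant value. The lowest mutant library was 13.2 times the higher control. Counting error alone (exact Poisson, 95%) put the lower control between 4.23 and 7.88 units of signal, and such intervals do not cover differences between samples.

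The paralogue sftpbb (ENSDARG00000067566) stood at 30.2 and 8.03 in the controls, from 222 and 65 reads. It stood at 252 and 329 in csf1ra-/-, from 2153 and 2098 reads, and at 558 and 687 in compound mutants, from 6900 and 7465 reads. Here the 3 genotypes did not overlap, with control lowest, csf1ra-/- between and the compound mutants highest. The lowest mutant library was 8.34 times the higher control. As a ratio, the controls lay further apart than the libraries of either mutant genotype.

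**Figure D1:**
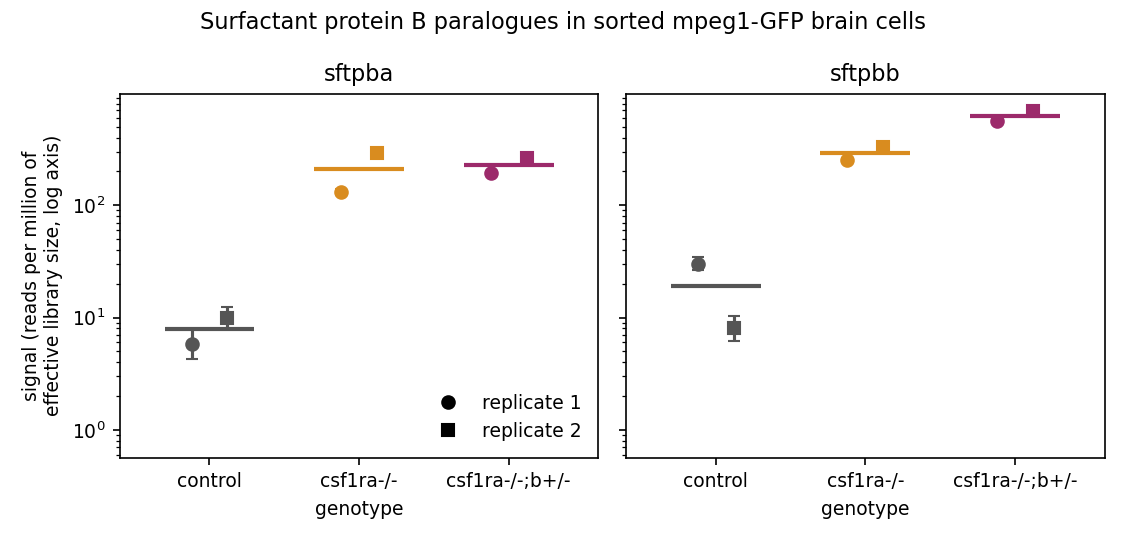
Signal of sftpba (left) and sftpbb (right) in each library by genotype, on a log axis in the deposited CPM scale. Circles are replicate 1 and squares replicate 2, bars are exact Poisson 95% intervals of the reads, and lines are group means (n = 2). The 4 mutant libraries sit between 132 and 291 for sftpba and between 252 and 687 for sftpbb, above the controls at 5.85 to 30.2.

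As group means, sftpba was at 7.93 ± 2.94 (SD, n = 2) in the controls, 212 ± 112 in csf1ra-/- and 227 ± 48.7 in compound mutants. For sftpbb the means were 19.1 ± 15.7, 290 ± 54.7 and 623 ± 91.2. On the log2 scale of signal plus 1, which understates changes of low values, sftpba was higher than control by 4.50 ± 0.58 (SE) in csf1ra-/- and by 4.70 ± 0.58 in compound mutants. For sftpbb the log2 differences were 4.11 ± 0.62 and 5.21 ± 0.62. The pair of comparisons shares its control libraries. The authors' deposited table gives log2 fold changes of 4.73 and 4.83 for sftpba, and of 3.93 and 5.03 for sftpbb. For both mutant genotypes together against control, the authors' deposited table gives 4.78 for sftpba and 4.48 for sftpbb.

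How common such a separation was across the table shows what the choice of the pair used. All 4 mutant libraries lay above both controls in 2318 of 21316 genes tested (10.9%), and below both in 2909 (13.6%). A gap from the higher control to the lowest mutant at least as wide as that of sftpba was seen in 70 genes (0.328%), and one at least as wide as that of sftpbb in 95 (0.446%). In signal, not corrected for transcript length, 96.6% to 99.1% of genes lay below either paralogue in the mutant libraries. The share below was 51.3% and 66.3% for sftpba in the controls, and 89.3% and 61.9% for sftpbb.

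Whether the loss of 1 csf1rb copy on top of csf1ra-/- went with a further change was not part of the choice, and could be tested. For sftpba the compound mutants differed from csf1ra-/- by a log2 difference of 0.19 ± 0.58 (SE, n = 2 per group), with a 95% interval from -1.10 to 1.48, which spans 0.468 to 2.79 times. The limma adjusted p over all genes was 0.905, and the sign was not stable: the difference was -0.38 without csf1ra-/- replicate 1, -0.03 without compound mutant replicate 2 and -0.0011 with libraries scaled to total reads. For sftpbb the log2 difference was 1.103 ± 0.62, with a 95% interval from -0.27 to 2.48, which spans 0.827 to 5.58 times. Both compound mutant libraries lay above both csf1ra-/- libraries, but the limma adjusted p was 0.475 and the unadjusted p was 0.105. The interval holds 0 as well as a rise of several times. Over all genes, this ordering of the libraries held for 20.0%, and the full order of control, csf1ra-/- and compound mutant without overlap for 4.15%. In the comparison of both mutant genotypes limma called 2 of 21316 genes, 0 higher and 2 lower in compound mutants (0.00938% lower), while 2735 had an unadjusted p under 0.05, and edgeR called 18 and DESeq2 1459. The authors' deposited table gives log2 fold changes of 0.10 for sftpba (false discovery rate 0.951) and 1.101 for sftpbb (0.274).

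The paralogues did not keep a fixed ratio to each other. In the controls the signal of sftpbb was 5.16 times that of sftpba in replicate 1 and 0.802 times in replicate 2. It was 1.91 and 1.13 times in the csf1ra-/- libraries, then 2.91 and 2.63 times in compound mutants. The ratio was thus higher in both compound mutants than in both csf1ra-/- libraries, and the controls lay outside both. These ratios do not depend on how a library was scaled, but they also reflect the lengths of the transcripts, so only their change between libraries can be read. The mean log2 ratio was 1.47 in compound mutants and 0.55 in the csf1ra-/- libraries, then an exact two-sided permutation test gave p = 0.333, the smallest p that 2 against 2 libraries allow. Over the 6 libraries the log2 signals of the pair had a Pearson correlation of 0.932, which describes libraries that share the genotype difference used to pick the genes.

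**Figure D2:**
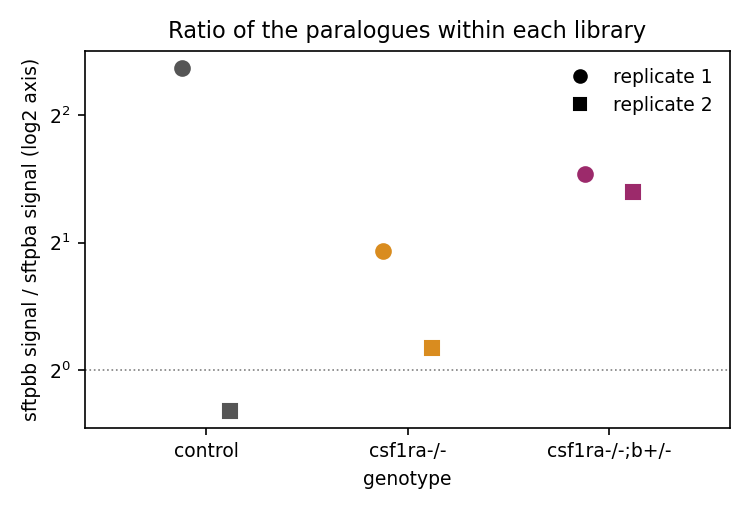
Signal of sftpbb divided by that of sftpba in each library, on a log2 axis, by genotype. Circles are replicate 1 and squares replicate 2, and the dotted line marks equal signal. The compound mutants lie close together at 2.91 and 2.63, while the controls lie at 5.16 and 0.802.

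On the log2 scale of signal plus 1, the other measured saposin-like genes differed from control by less than the paralogues did. The paralogues were picked for standing higher in every mutant library, so this contrast follows in part from that choice. The log2 scale also understates changes of low genes such as cnpy4 and nkl.2. Of 15 listed symbols 8 were measured and tested. In compound mutants against control, limma called 185 of 21316 genes higher (0.868%) and 74 lower (0.347%), and 26.8% of all genes had an unadjusted p under 0.05. In the same comparison edgeR called 1.67% of genes, and DESeq2 17.7% of those it gave an adjusted p. Of the 8 saposin-like genes limma called 0, with 3 at an unadjusted p under 0.05 (smpd1, nkl.2 and manf), while edgeR called 0 and DESeq2 2. Of only 8 genes, the limma and edgeR counts are near those shares. The 2 genes called by DESeq2 were higher, whereas over all genes it called 1159 higher and 2458 lower. The median log2 difference of the 8 was 0.97, beside -0.16 for all genes. It was 0.50 over the 12620 genes with at least 50 reads in 2 libraries. That filter can itself raise the median, since genes high in the deeply read compound mutants can pass through them alone. Prosaposin (psap) was abundant throughout, at 565 and 922 in the controls, 744 and 650 in the csf1ra-/- libraries, then 936 and 973 in compound mutants, a log2 difference of 0.40 ± 0.47 from control in compound mutants (adjusted p = 0.607). The acid sphingomyelinase gene smpd1, whose enzyme carries its own saposin domain, was at 9.79 and 1.98 in the controls, 14.9 and 17.6 in the csf1ra-/- libraries, then 90.9 and 45.2 in compound mutants. Its 3 genotypes did not overlap, and its log2 difference in compound mutants was 3.52 ± 0.80 (adjusted p = 0.0614). Of the 8 genes 2, smpd1 and manf, rose in the order of genotypes without overlap, beside 4.15% of all genes. The neurotrophic factor gene manf was at 8.30 and 13.7, 18.1 and 24.2, and 37.6 and 29.2 in the same order (1.54 ± 0.66, adjusted p = 0.169). The canopy genes cnpy1 and cnpy4 had log2 differences of 1.87 and 2.27 (adjusted p = 0.213 and 0.259), and the cnpy4 value rested on compound mutant replicate 2, at 23.6 against 0.0809 in replicate 1. The NK-lysin gene nkl.2, of a family of lymphocyte peptides that lyse membranes, was at 2.31 and 3.21 in control and had 0 reads in all 4 mutant libraries (adjusted p = 0.0914).

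Genes that handle surfactant in the mammalian lung were considered next, as the processing of the precursor and the control of its gene are best known there. Of 35 symbols 21 were measured and 20 tested, with 0 called by limma or edgeR in compound mutants against control and 4, all lower, by DESeq2. An unadjusted limma p under 0.05 was found for 6 of the 20, beside 26.8% of all genes, and DESeq2 called 17.7% of all genes, so both counts are near the background. Their median log2 difference was -0.15, close to that of all genes. Cathepsin H and napsin A, which are among the proteases that process the mammalian precursor, were read in every library. Cathepsin H (ctsh) stood at 139 and 283 in the controls, 150 and 143 in the csf1ra-/- libraries, then 316 and 343 in compound mutants. Napsin A, named NAPSA in the table, stood at 164 and 212, 288 and 307, and 362 and 459, with no overlap between genotypes and a log2 difference of 1.13 ± 0.47 in compound mutants against control (adjusted p = 0.158).

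The acyltransferase gene lpcat1, which in mammals makes the saturated phosphatidylcholine of surfactant, likewise followed the order of genotypes. It stood at 24.4 and 28.2 in the controls, 34.8 and 55.4 in the csf1ra-/- libraries, then 64.7 and 96.6 in compound mutants (1.56 ± 0.56, adjusted p = 0.122). With napsin A, this made 2 of the 20 tested genes in this order without overlap, beside 4.15% of all genes. Transcription factors that activate the gene in the mammalian lung epithelium ranged from a few reads to abundant. The gene nkx2.1 had 45 and 27 reads in the controls, 13 and 0 in the csf1ra-/- libraries, then 0 and 1 in compound mutants, and foxa1 had 33 and 16, 17 and 0, and 0 and 0. Both had at most 1 read in each compound mutant library, with limma adjusted p of 0.0988 and 0.130 in compound mutants against control. The factor genes cebpa, at 200 to 519 in compound mutants against 286 and 461 in the controls, and cebpb had log2 differences of -0.17 and 0.39. The receptor gene erbb2 and the transcription factor gene etv5a had log2 differences of -2.41 and -3.26 (adjusted p = 0.105 and 0.0816).

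Genes of lysosomal sphingolipid and phospholipid breakdown, with some lysosomal carriers and activators, lay mostly above control in the compound mutants. Some of the enzymes work with the saposins, and smpd1 is also in the saposin-like list. Even so, 0 of 21 tested were called by limma or edgeR, and 4 by DESeq2. Of these 21 genes, 18 had a log2 difference above 0, beside 46.4% of all genes. All 4 DESeq2 calls in this list were higher. Over all genes DESeq2 called 17.7% in either direction, 1159 higher and 2458 lower. In this list 11 had an unadjusted limma p under 0.05, beside 26.8% of all genes, among them galca with a log2 difference of -2.20. Their median log2 difference was 1.33 in compound mutants and 0.31 in csf1ra-/-, beside -0.16 and -0.03 for all genes. Over the 12620 genes with at least 50 reads in 2 libraries, the medians were 0.50 and 0.24. Genes high in the compound mutants, which had the most reads, can pass that filter through them alone. The filter itself can therefore raise these medians. The acid ceramidase gene asah1b stood at 194 and 247 in the controls, 433 and 177 in the csf1ra-/- libraries, then 804 and 930 in compound mutants (1.98 ± 0.54, adjusted p = 0.0813). The thioesterase gene ppt1 stood at 69.0 and 138, 260 and 177, and 367 and 655 (2.32 ± 0.55, adjusted p = 0.0654). Protective protein cathepsin A (ctsa) and the galactosaminidase gene naga had log2 differences of 1.92 and 1.61 (adjusted p = 0.100 and 0.103). The ganglioside activator gm2a, at 872 and 1346 in compound mutants against 320 and 580 in the controls, and the cholesterol carrier npc2 differed by 1.33 and 1.50 (adjusted p = 0.154 and 0.133).

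**Figure D3:**
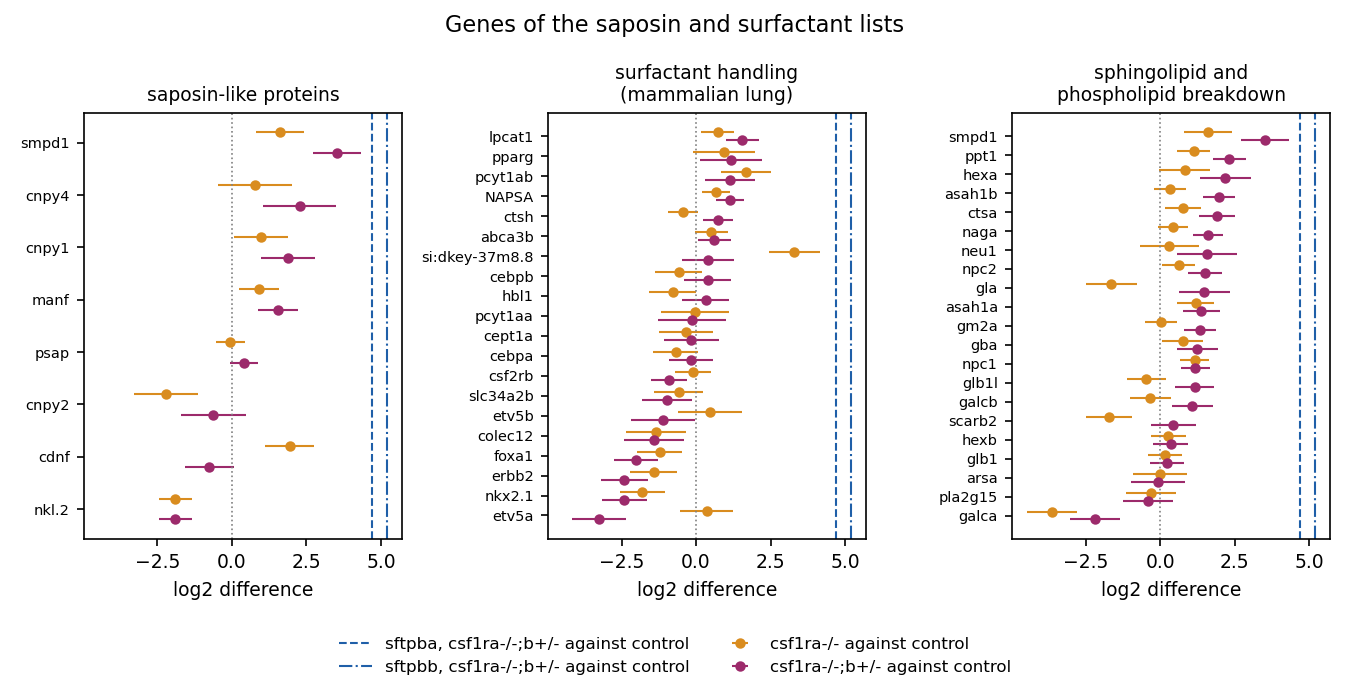
Log2 differences of each tested gene of the saposin-like, surfactant handling and lysosomal lipid lists, in csf1ra-/- (orange) and compound mutants (purple) against the same controls. Bars are standard errors (n = 2 per group), vertical blue lines mark sftpba (4.70, dashed) and sftpbb (5.21, dash-dot) in compound mutants against control. All points of the 3 lists lie left of both lines, smpd1 coming nearest at 3.52. The lines mark genes picked for being high in the mutants, so their place to the right follows in part from that choice.

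Genes next to the paralogues in the genome were looked at as well. By gene order in the GRCz12tu annotation, used only for order since the authors' build was GRCz10, sftpba lies between mpx and mat2aa, and sftpbb between usp39 and spaw. In human the single gene SFTPB also lies near USP39 and MAT2A. The splicing gene usp39 had 4 and 9 reads in the controls, 75 and 134 in the csf1ra-/- libraries, then 154 and 624 in compound mutants, which is 0.544 and 1.11 units of signal against 8.77 to 57.5 in the mutants. All of its mutant libraries thus lay above both controls, as for sftpbb itself, with a log2 difference of 3.96 ± 0.93 in compound mutants against control (adjusted p = 0.0647) and 3.02 in csf1ra-/- (adjusted p = 0.400). Whether reads from sftpbb were counted under usp39 was not tested. Of the 3 nearest protein-coding genes on each side, usp39 was the only one measured for sftpbb, and 5 were measured for sftpba. None of these 5 had all mutant libraries above the controls. As 10.9% of all genes did, such a count among 5 genes is near that share. The methionine adenosyltransferase gene mat2aa stood at 29.9 and 107 in the controls, 70.4 and 160 in the csf1ra-/- libraries, then 45.0 and 34.1 in compound mutants. The neutrophil peroxidase gene mpx had 73 and 2 reads in the controls, 22 and 30 in the csf1ra-/- libraries, then 0 in both compound mutants, so its reads did not follow those of sftpba.

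Among 4343 named genes with a mean signal of at least 20, the 6 most like each paralogue were picked by their pattern over the 6 libraries. Their log2 differences in compound mutants against control ran from 0.63 to 2.58 for sftpba and from 1.85 to 4.86 for sftpbb. By Pearson's r of log2 signal plus 1, sftpba was followed most closely by map4k3a (0.998), capgb (0.995), kpna3 (0.993), rnpc3 (0.992), fam91a1 (0.990) and b4galt6 (0.990). The actin-capping gene capgb stood at 19.6 and 25.7 in the controls, 101 and 125 in the csf1ra-/- libraries, then 130 and 150 in compound mutants, a log2 difference of 2.58 in compound mutants against control. Most like sftpbb were zc4h2 (0.997), rbp2a (0.993), acadm (0.992), ppifb (0.992), rras2 (0.992) and waslb (0.987). The retinol-binding protein gene rbp2a stood at 3.81 and 0 in the controls, 33.9 and 52.2 in the csf1ra-/- libraries, then 57.5 and 68.1 in compound mutants (log2 difference 4.86). As these genes were picked for following the paralogues, their differences are a description with no test. Such an r over 6 libraries that share their scaling measures the order and spacing of values and not their size.

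Most markers of dendritic-like mpeg1 cells stood higher in the mutant libraries. Like the other lists, theirs was chosen with earlier results of these data known. In bulk RNA, a change in the number of cells of a type and a change in RNA per cell cannot be told apart. Among 11 genes marking dendritic-like mpeg1 cells of the zebrafish brain, 10 had all mutant libraries above both controls, beside 10.9% of all genes. The same number followed the order of control, csf1ra-/- and compound mutant without overlap, beside 4.15% of all genes. The exception to both was zbtb46, at 31.4 and 34.8 in the controls and 33.3 and 22.9 in the csf1ra-/- libraries. In compound mutants zbtb46 stood at 20.8 and 18.9, a log2 difference of -0.71 from control (limma adjusted p = 0.464). In compound mutants against control limma called 8 of the 11 higher and 0 lower, with a median log2 difference of 3.59. Over all genes it called 0.868% higher and 0.347% lower. These 8 calls became 0 without either control or either csf1ra-/- library, settings in which 0 genes of the whole table passed. They became 1 without compound mutant replicate 2, where 27 genes passed. The chemokine gene ccl19a.1 stood at 222 and 518 in the controls, 921 and 1219 in the csf1ra-/- libraries, then 2836 and 7791 in compound mutants. The secreted ependymin-related gene epdl1 stood at 27.8 and 35.4, 524 and 425, and 1266 and 1914. The lectin gene siglec15l and the transcriptional regulator gene id2a had log2 differences of 4.52 and 3.09 (adjusted p = 0.0306 for both).

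The paralogues and the summed dendritic-like markers were not in a fixed proportion. That sum ran from 584 to 1067 in the controls, from 2553 to 2718 in the csf1ra-/- libraries, then from 7429 to 16403 in compound mutants, so the mean was 3.20 times control in csf1ra-/- and 14.4 times in compound mutants. The chemokine gene ccl19a.1 made up 36.1% to 48.6% of the sum, and without it the ratios were 3.44 and 14.5. Single markers differed from the sum: the mean of epdl1 was 15.0 times control in csf1ra-/- and 50.3 times in compound mutants. The mean of sftpba was 26.7 and 28.6 times control in the same genotypes, and that of sftpbb 15.2 and 32.6 times. As a share of the marker sum, sftpba was 1.00% and 0.938% in the controls, 5.17% and 10.7% in the csf1ra-/- libraries, then 2.59% and 1.59% in compound mutants. For sftpbb the shares were 5.18% and 0.753%, 9.86% and 12.1%, and 7.52% and 4.19%. Both paralogues thus had their highest shares in the csf1ra-/- libraries. The part of these cells in the difference from control was not tested.

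Other marker lists moved less evenly. Summed microglia markers ran from 36122 to 86196 over all libraries, and were at 0.678 times control in csf1ra-/- and 1.24 times in compound mutants. The rise in compound mutants rested on cd74a and cd74b. Their means were 21590 and 7630 in control, then 32070 and 21880 in compound mutants, where the mean sum was 78250. Of the 20 genes, 12 had a log2 difference above 0 in compound mutants against control, among them mpeg1.1 (1.54). The other 8 lay below 0, among them apoc1 (-2.01), ccl34b.1 (-1.77), havcr1 (-1.50), p2ry12 (-1.04) and csf1rb (-2.205). The list thus holds the targeted receptors and the gene of the macrophage reporter, so its sum is not a measure of microglia alone. Summed B lymphocyte markers were higher in each mutant library, at 277 to 691 in csf1ra-/- and 344 to 652 in compound mutants against 130 and 213 in the controls. Of these 7 genes, 4 had all mutant libraries above both controls, beside 10.9% of all genes. Oligodendrocyte markers summed to 339 and 402 in the controls, 430 and 386 in the csf1ra-/- libraries, then 2796 and 4415 in compound mutants. Of these 10 genes limma called 3 higher in compound mutants against control, beside 0.868% of all genes. Summed neuron markers, at 77.4 to 108 in control and csf1ra-/- and 350 and 676 in compound mutants, rested on stmn1b, at 336 and 629 there. Of the 9 neuron genes 7 lay below 0 in compound mutants against control and 2 above, with a median log2 difference of -0.75. Epithelial and metaphocyte markers, of interest since epithelium makes surfactant in mammals, summed to 100 and 91.0 in the controls, 179 and 225 in the csf1ra-/- libraries, then 166 and 138 in compound mutants. The keratin gene krt8 made up most of that sum in the mutants, at 95.3 to 160, while the epithelial adhesion gene epcam stood at 3.64 to 14.0 there and at 15.0 and 10.4 in control. Of the 12 genes tested in this list, 9 lay below 0 in compound mutants against control and 3 above, with a median log2 difference of -0.67. Summed signals of neutrophil markers ran from 86.2 to 264 and of vessel markers from 191 to 456, with overlapping genotypes, and those of radial glia from 753 to 2474. In compound mutants the neutrophil sum rested on nccrp1, at 212 and 230, and the vessel sum on pecam1, at 287 and 280. Against control, 3 of the 5 neutrophil genes lay below 0 there and 2 above, with a median log2 difference of -1.25. Of the 7 vessel genes 5 lay below 0 and 2 above, with a median of -0.58. The glutamine synthetase gene glula made up 70.3% to 96.7% of the radial glia sum. Its paralogue glulb was at 3.54 and 8.65 in the controls, 31.1 and 31.4 in the csf1ra-/- libraries, then 286 and 315 in the compound mutants, in the same order of genotypes as sftpbb (log2 difference 5.51 ± 0.59 from control, adjusted p = 0.00776). Red cell and thrombocyte markers summed to at most 44.8 and T and natural killer markers to at most 49.2 in any library. The part of these cells in the paralogues' values was not tested either.

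**Figure D4:**
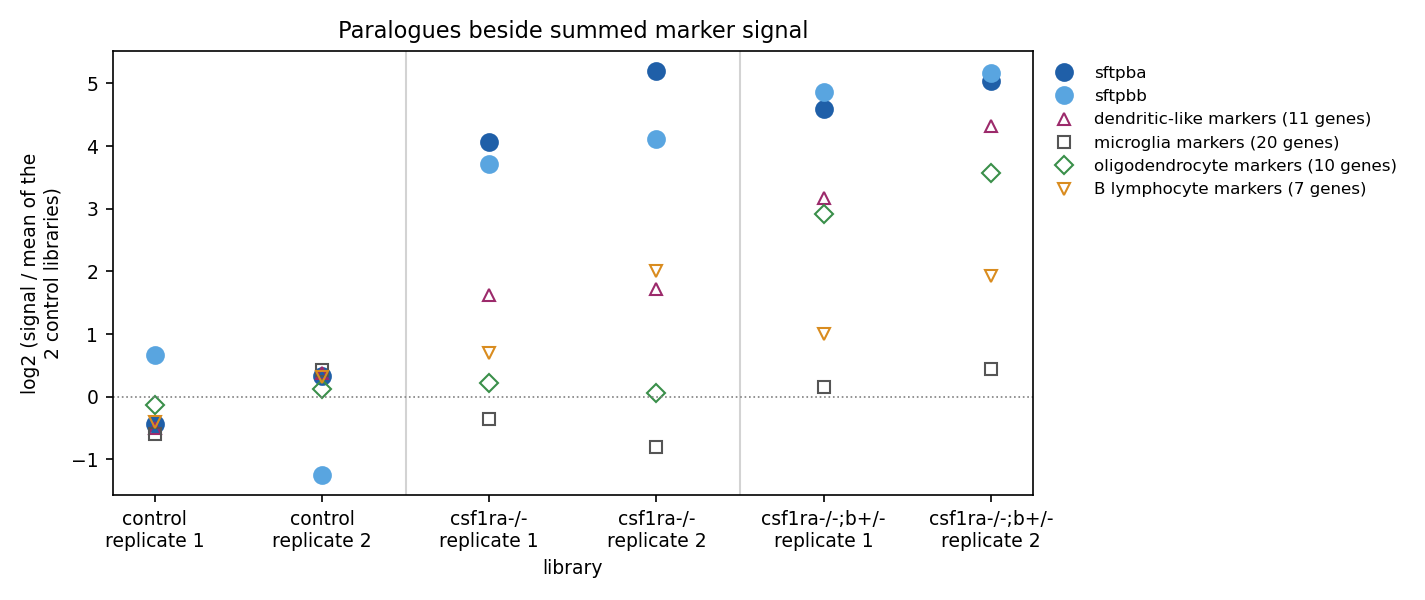
Signal of sftpba and sftpbb (filled circles) and summed signal of 4 marker lists (open symbols) in each library, as log2 of the ratio to the mean of the control libraries. In csf1ra-/- both paralogues lie well above every marker sum shown, and in compound mutants the dendritic-like sum, at 14.4 times control as a mean, comes closer to them, at 28.6 and 32.6 times. The genes cd74a and cd74b carry most of the microglia sum in compound mutants.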

How the data were processed

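GFP-positive cells were collected by flow cytometry and their low-input cDNA libraries were read as 50-nucleotide single reads, per the labels' protocols. HISAT2, edgeR and the GRCz10 build are named in the submitters' processing notes, whereas software versions, the annotation and how reads were counted were not stated there. A single table of 21860 genes was used. The signal values deposited by the authors, called CPM per the file headers, are reads divided by the authors' effective library size: 100% of values were whole multiples of the library's smallest value within a tolerance of 0.001, so reads were recovered. The log2 fold changes and the false discovery rates, held as p-value columns, are the authors' own, per the file headers. Another 15 columns of samples or groups were not used.

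All 6 libraries were fitted as 3 group means with limma (trend and robust estimation) on log2 of signal plus a pseudocount of 1, keeping 21316 genes that reached a signal of 1 in 2 or more libraries. Benjamini-Hochberg adjustment ran over all of these, with a threshold of 0.05. Versions were limma 3.58.1, DESeq2 1.42.0 and edgeR 4.0.16 under R 4.3.3. On simulated data, the limma and edgeR fits were checked for the sign and size of planted changes. That check set no condition on the number of calls and left out csf1ra-/- against control. The members and all lists were chosen with earlier results of these data known. Named genes were those of each pathway list with the 5 smallest p or the 3 highest signals, the main markers of each cell list, the 6 most alike by correlation and 3 neighbours on each side. Alternatives were edgeR and DESeq2 on the recovered reads, other pseudocounts, scalings and filters, each library left out, the replicate number as a block, only the libraries compared, and no robust estimation. Counts per list under these settings were added after seeing the data. The search for related proteins planned beforehand was not run, and no sequence was used here, so reads shared between the paralogues were not examined.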

Additional observations from a re-analysis of the deposited data

How the results depend on the processing

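The differences of the paralogues from control kept their direction in all 17 alternatives. The pair was chosen with every mutant library above both controls, so this direction was largely fixed beforehand and only the sizes are informative. With 1 library left out the differences ran from 3.94 to 5.07 (sftpba) and 3.21 to 5.00 (sftpbb) in csf1ra-/-. In compound mutants they ran from 4.35 to 5.04 and 4.31 to 6.10. For sftpba in compound mutants the value was 4.28 at a pseudocount of 4 and 4.03 on total reads. That scaling shifted the median gene from -0.16 to -0.70. Measured from the median gene, sftpba was at 4.73 and sftpbb at 5.20, against 4.85 and 5.37 as designed. Between the mutant genotypes sftpba ran from -0.38 to 0.76 with 1 library left out and was -0.0011 on total reads, and sftpbb ran from 0.91 to 1.30, with adjusted p from 0.313 to 0.792 over all alternatives.

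Counts of calls depended on the setting, and the cause was not tested. In csf1ra-/- against control limma called 0 genes (2167 at an unadjusted p under 0.05), and 0 to 12 with 1 library left out. It called 3 at a pseudocount of 4, 7 on total reads, 5 with median-ratio scaling, 13 at a minimum of 50 reads and 19 with only 4 libraries, while edgeR called 8 and DESeq2 259. In compound mutants against control the 259 calls became 0 to 137 with 1 library left out, 95 at a pseudocount of 0.25, 872 at 50 reads, 0 with only 4 libraries and 3617 with DESeq2. On total reads 126 were higher and 184 lower, and with edgeR 209 and 148. Between the mutant genotypes the 2 calls became 0 to 8 with 1 library left out, 4 at a pseudocount of 4, 39 on total reads, 5 with median-ratio scaling and without robust estimation, 48 at 50 reads, 0 with only 4 libraries, 18 with edgeR and 1459 with DESeq2. Of the 48 genes of the pathway lists, DESeq2 called 9 in compound mutants against control, 5 higher and 4 lower. Over all genes it called 17.7%, 1159 higher and 2458 lower. At 50 reads 3 were called, beside 872 of all 12620 genes tested there. A genotype left with 1 library was assumed to vary like the others.

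With the replicate number as a block, calls rose to 11, 576 and 34 in the 3 comparisons. In compound mutants against control 2 of the 48 pathway genes were called, beside those 576 of all 21316 genes. Deviations of libraries with the same number correlated at 0.0060 to 0.018 over all genes tested. The number thus showed no pairing across genes as a whole, and this value cannot exclude a pairing limited to some genes. Between the mutant genotypes the blocked adjusted p was 0.901 for sftpba and 0.443 for sftpbb.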
